A study of Mus musculus with 8 samples.

Results

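miR-199a, miR-199b and miR-214 are microRNAs of fibroblasts and other mesenchymal cells. Their 5 mature products, miR-199a-5p, miR-199b-5p, miR-199-3p, miR-214-5p and miR-214-3p, were taken by name from 433 mature miRNAs counted in 8 small-RNA libraries of NIH-3T3, a fibroblast line that grew out of mouse embryo cultures and divides without limit. All cells were unmodified NIH-3T3 passaged in 10% calf serum, and each library is 1 condition without a replicate. The 3 libraries that the labels place in G0, the resting state outside the cell cycle, came from cells starved of serum for 48 h (serum 0 h) and from cells held 3 or 5 days by contact with their neighbours (contact days 3 and 5). The other 5 came from starved cells given 20% serum and collected 12 h (G1), 16 h (S), 20 h (G2/M) and 24 h later (G1), and from asynchronous cells of contact day 0. The contact cells had been plated at 12% confluency.

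A miRNA hairpin is cut by Drosha and Dicer into a duplex of a 5p and a 3p strand, of which one is usually kept in Argonaute and the other lost. The kept strand finds target mRNAs mainly through its seed, bases 2 to 8, so a shift of its 5′ end by 1 base gives another seed. In the mouse, Mir199a-2 and Mir214 lie in a noncoding transcript, Dnm3os, that is antisense to the dynamin gene Dnm3 and is induced by Twist1 in mesenchyme. miR-199a-3p is known to repress Met and Mtor, and miR-214-3p to repress Ezh2.

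The hairpins are shown because arm choice, the a and b forms and the shifted 5′ ends all read from them. Capitals mark the mature arms. The sequences are RefSeq's, from build GRCm38.p6, with the 5p arm of Mir199b marked as the reads gave it.
Mir199a-1: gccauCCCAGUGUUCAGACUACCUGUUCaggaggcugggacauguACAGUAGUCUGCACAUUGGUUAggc
Mir199a-2: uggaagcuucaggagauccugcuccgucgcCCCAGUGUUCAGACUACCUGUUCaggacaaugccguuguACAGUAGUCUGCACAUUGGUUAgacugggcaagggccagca
Mir199b: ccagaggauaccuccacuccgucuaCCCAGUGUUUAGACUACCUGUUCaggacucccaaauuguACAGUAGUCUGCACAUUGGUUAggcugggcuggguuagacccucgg
Mir214: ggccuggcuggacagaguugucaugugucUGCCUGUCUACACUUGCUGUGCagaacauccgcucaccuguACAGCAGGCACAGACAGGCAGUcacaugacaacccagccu

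The mature products follow with their seeds in capitals, as RefSeq lists them. The a and b forms of the 3p arm are identical and are counted together as miR-199-3p.
miR-199a-5p: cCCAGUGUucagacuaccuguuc
miR-199a-3p: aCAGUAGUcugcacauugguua
miR-199b-3p: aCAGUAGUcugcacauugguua
miR-214-5p: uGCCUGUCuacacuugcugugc
miR-214-3p: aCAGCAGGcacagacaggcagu
No seed is shared between the miR-199 and the miR-214 products. miR-199b-5p has the seed of miR-199a-5p and differs from it at 1 base, C10U, counted from 1 at the miRNA's 5′ end.

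In GRCm38, Mir199a-2 lies at chr1:162217814-162217923 and Mir214 at chr1:162223368-162223477, both on the plus strand, with 5444 bases between them. Both are in exons of Dnm3os (chr1:162217623-162225550) and opposite an intron of Dnm3. Mir199a-1 lies at chr9:21496495-21496564 on the minus strand, opposite an intron of Dnm2, and Mir199b at chr2:32318460-32318569 on the plus strand, opposite an intron of Dnm1. miR-199a-5p reads can come from Mir199a-1 or Mir199a-2, and miR-199-3p reads from any of the 3 miR-199 hairpins. miR-214 alone reads only from the Dnm3os locus.

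The libraries held between 707202 and 8512472 reads, of which 137585 to 892528 fell to miRNAs. In the 5 serum libraries 62.2% to 94.6% of all reads were taken to be marker oligonucleotides, against at most 0.0389% in the contact libraries. Libraries of the 2 experiments therefore differ in more than the treatment, and comparisons are also given within each. Levels are counts per 1000000 reads (CPM) of a library size scaled by TMM, which adjusts for the few miRNAs that take up much of a library. All 8 fibroblast or mesenchymal marker miRNAs, 3 of the 5 products among them, had reads in each library, with a summed TMM-scaled level of 113511 (contact day 0) to 595580 (contact day 5) CPM. Of 7 epithelial miRNAs, 5 had reads at serum 0 h, summing to 2125 CPM, against at most 50.6 CPM in any other library, and miR-205-5p had 0 reads there. In such bulk libraries, fewer cells of a type and less RNA per cell cannot be told apart.

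miR-199-3p was the most abundant of the 433 miRNAs by mean TMM-scaled level, and on that scale contact day 5 was its highest library. In the G0 libraries miR-199-3p had 90066 CPM at serum 0 h, 25252 CPM on contact day 3 and 288813 CPM on contact day 5. In the others it had 69558, 113190, 73256 and 67183 CPM at serum 12, 16, 20 and 24 h and 35017 CPM on contact day 0. The lowest and the highest library are both G0 contact libraries, and the groups overlap.

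The 5p products of miR-199, made from the other strand of the same hairpins, were far scarcer. miR-199a-5p ranked 25 by mean level and had 13607 CPM at serum 0 h, 1776 CPM on contact day 3 and 8461 CPM on contact day 5. In the other libraries it had 8807, 12185, 8684 and 4094 CPM at serum 12, 16, 20 and 24 h and 2412 CPM on contact day 0. Its highest library was serum 0 h, not contact day 5, and its lowest was contact day 3.
miR-199b-5p ranked 93, with 1430 CPM at serum 0 h, 438 CPM on contact day 3 and 1998 CPM on contact day 5. In the others it had 461, 1345, 827 and 587 CPM at serum 12, 16, 20 and 24 h and 272 CPM on contact day 0. The groups overlap for both products.

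miR-214-3p, the main product of the hairpin next to Mir199a-2, was at its lowest contact level on day 5, where miR-199-3p was at its highest. It ranked 38, with 2204 CPM at serum 0 h, 7468 CPM on contact day 3 and 3076 CPM on contact day 5. In the others it had 2474, 1592, 1435 and 1873 CPM at serum 12, 16, 20 and 24 h and 11175 CPM on contact day 0. Contact days 0 and 3 were its highest libraries and the lowest ones of miR-199-3p.
miR-214-5p ranked 158 and rested on few reads. Counted from its most frequent 5′ end over all libraries, it had 73 reads (serum 0 h), 38 (contact day 3) and 61 (contact day 5) in G0 libraries. It had 282, 234, 50 and 29 reads at serum 12, 16, 20 and 24 h and 32 on contact day 0. The 282 reads of serum 12 h came from 2 distinct inserts, 88.3% of them from 1 insert. Serum 20 and 24 h had 2 and 1 distinct inserts on fewer reads, and the other libraries 5 to 11.

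**Figure D1:**
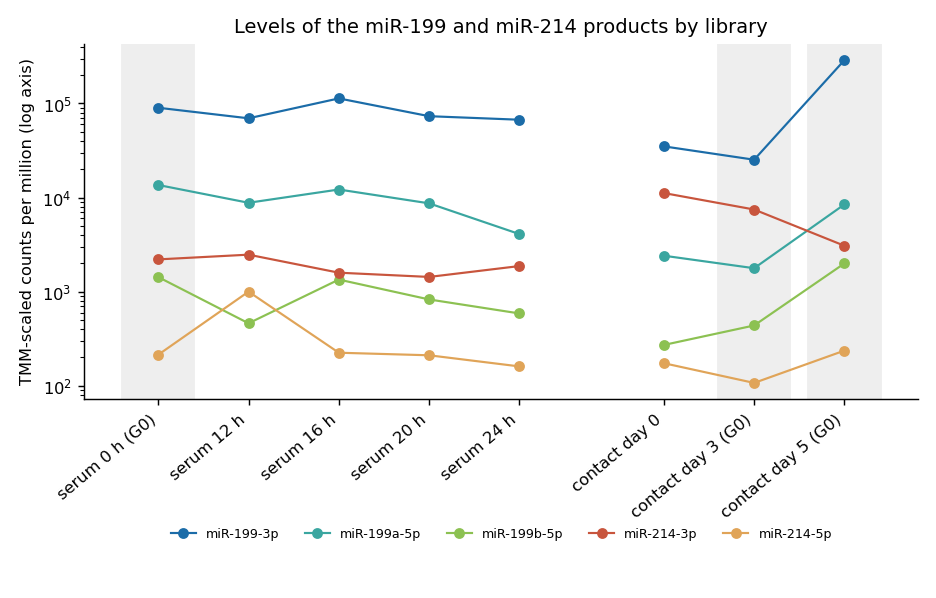
The plot shows the TMM-scaled level of each product in CPM (log axis) in each library, with 1 point a library and G0 libraries shaded. miR-199-3p is highest on contact day 5 (288813 CPM), where miR-214-3p (3076 CPM) is below its level on contact days 3 (7468 CPM) and 0 (11175 CPM).

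As a share of all miRNA reads, free of the scaling, miR-199-3p took 16.1% on contact day 5 (95% exact binomial interval 16.0% to 16.2%), 13.2% at serum 16 h and 12.9% at serum 0 h. The gap between contact day 5 and the next library was narrower on this scale than with TMM. It took 9.65%, 9.45% and 8.81% at serum 12, 20 and 24 h, then 2.04% and 1.98% on contact days 3 and 0. Neighbours in this order had overlapping intervals only at serum 12 and 20 h and on contact days 3 and 0. For miR-214-3p the order began with contact day 0 at 0.631% and contact day 3 at 0.604%, whose intervals overlap, and ended with contact day 5 at 0.172% (0.160% to 0.184%), whose interval overlaps those of serum 20 h (0.185%) and 16 h (0.186%). miR-199a-5p took 1.95% at serum 0 h at the top and 0.136% on contact day 0 at the bottom, where its interval overlaps that of contact day 3.

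The counted miR-214-3p reads begin 1 base upstream of RefSeq's start, because that was the more frequent 5′ end in these libraries. Among reads identical to the hairpin over their whole length, 56% began there, 41.6% at RefSeq's start and 0.940% 1 base further on. The seeds, in capitals, differ between them.
miR-214-3p from 1 base upstream: uACAGCAGgcacagacaggcagu
miR-214-3p from RefSeq's start: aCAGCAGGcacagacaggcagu
miR-214-5p from RefSeq's start: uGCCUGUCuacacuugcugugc
miR-214-5p from 1 base downstream: gCCUGUCUacacuugcugugc
miR-199-3p from RefSeq's start: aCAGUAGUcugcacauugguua
miR-199-3p from 1 base downstream: cAGUAGUCugcacauugguua
Both arms of miR-214 thus had a pair of frequent starts. Over all libraries the miR-214-5p shares were 56% at RefSeq's start and 43.2% 1 base downstream. Its downstream share was 70.3% at serum 0 h and 63.0% and 61.3% on contact days 3 and 5. It was 14.4%, 37.0%, 40.2% and 23.7% at serum 12, 16, 20 and 24 h and 45.6% on contact day 0. The 95% interval of contact day 0 (32.4% to 59.3%) overlaps those of contact days 3 and 5, and the groups were not tested for this. miR-199-3p began at RefSeq's start in 83.6% of reads, 1 base downstream in 9.18% and 1 base upstream in 7.04%.

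Counting every read whose 5′ end lay within 1 base of the counted start raised miR-214-3p to 1515 reads at serum 0 h (752 without), 4725 on contact day 3 (2645) and 1381 on contact day 5 (793). In the other libraries it gave 1876, 3736, 918 and 741 reads at serum 12, 16, 20 and 24 h and 3861 on contact day 0. miR-214-5p rose to 241 reads at serum 0 h (73 without), 110 on contact day 3 (38) and 164 on contact day 5 (61). It rose to 324, 381, 85 and 36 reads at serum 12, 16, 20 and 24 h (282, 234, 50 and 29). On contact day 0 it rose to 59 (32). miR-199a-5p moved far less, with 4675 reads at serum 0 h (4643 without). For miR-214-3p the order of contact day 5 below days 3 and 0 held, at 0.282% of miRNA reads against 1.04% and 1.14%.

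The share of hairpin-identical miR-214-3p reads that began 1 base downstream of the counted start, at RefSeq's start, was 40.5% at serum 0 h and 39.6% and 38.1% on contact days 3 and 5. In the other libraries it was 59.1%, 39.8%, 45.1% and 37.1% at serum 12, 16, 20 and 24 h and 42.4% on contact day 0. Serum 12 h alone stood apart, a library in which miR-214-5p and miR-199b-5p each came from 2 distinct inserts. Over the 73 miRNAs that reached 100 reads in every library, the mean of this share was highest for miR-214-3p at 42.7% and next for miR-199-3p at 12.6%, against a median miRNA at 1.07%.
For miR-199-3p the share 1 base downstream was 6.75% at serum 0 h and 26% and 9.42% on contact days 3 and 5. It was 9.88%, 6.85%, 10.3% and 8.11% at serum 12, 16, 20 and 24 h and 23.9% on contact day 0. Contact days 3 and 0, where miR-199-3p itself was lowest, had the largest shares of the shifted seed, and the 95% intervals of both exclude all other libraries. The interval on contact day 3 ran from 25.2% to 26.8%.

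miR-214-3p also carried more untemplated 3′ bases, that is, bases absent from the hairpin, than nearly all other miRNAs. Such tails were found on 43.6%, 43.7% and 39.6% of its counted reads at serum 0 h and contact days 3 and 5. The other libraries had 70.7%, 59.0%, 53.8% and 71.9% at serum 12, 16, 20 and 24 h and 46.2% on contact day 0. Its mean of 53.6% ranked 3 of 73 miRNAs (median 16.4%), and tails made of A alone, on 31.6% of reads, ranked 2. miR-199-3p had tails on 16.6% of reads and miR-199a-5p on 8.65%. The most frequent miR-214-3p inserts show the added A, here in capitals.
miR-214-3p, 23.7% of reads: uacagcaggcacagacaggcag
miR-214-3p, 23.3% of reads: uacagcaggcacagacaggcagu
miR-214-3p, 10.5% of reads: uacagcaggcacagacaggcagA
miR-214-3p, 3.93% of reads: uacagcaggcacagacaggcaguA
Serum 12 and 24 h had the most tailed reads and contact day 5 the fewest. The interval of contact day 0 (44.1% to 48.4%) overlaps those of serum 0 h and contact day 3.

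**Figure D2:**
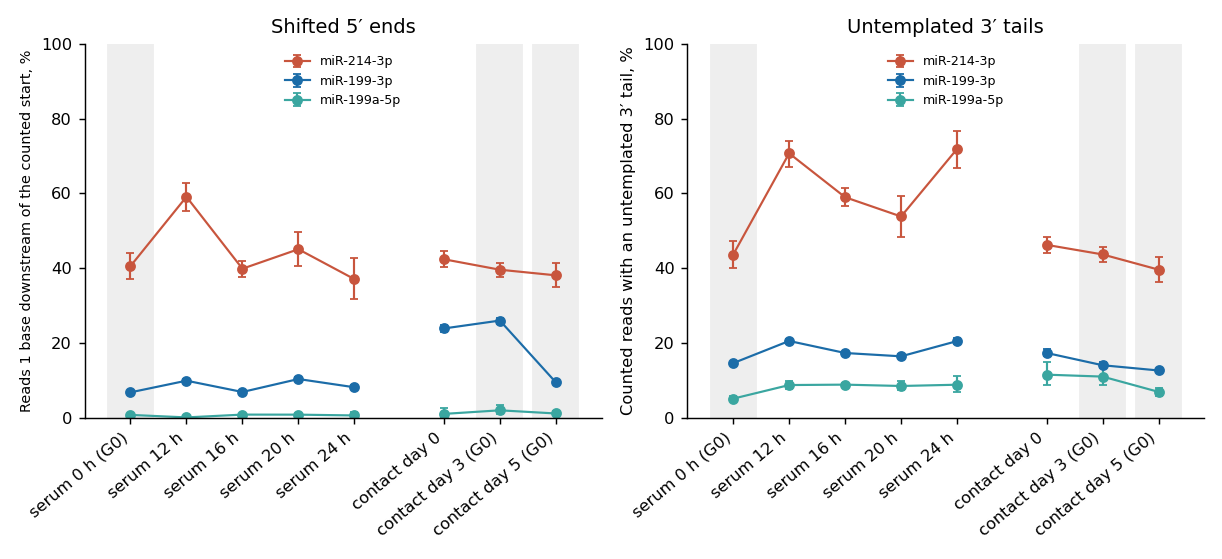
The left panel plots, for 3 products, the percentage of hairpin-identical reads that begin 1 base downstream of the counted start, and the right panel the percentage of counted reads with an untemplated 3′ tail. Points are libraries, bars are 95% exact binomial intervals and G0 libraries are shaded. miR-214-3p is above miR-199-3p in both panels in each library, and miR-199-3p has its highest shifted shares on contact days 3 (26%) and 0 (23.9%).

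The length of miR-199a-5p differed between the experiments. Inserts of 23 nt made up 64.4% of its reads at serum 0 h and 51.3%, 52.5%, 50.8% and 51.3% at serum 12, 16, 20 and 24 h. On contact days 0, 3 and 5 they made up 43.0%, 35.8% and 39.2%, and inserts of 22 nt made up 43.7%, 50.9% and 53.6%. The contact libraries lay below all serum libraries in the 23-nt share. With no condition shared by the experiments, treatment and library series cannot be told apart here.

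Arm choice of miR-199 favoured the 3p strand in each library. The 5p reads of the a and b forms made up 14.3% of all miR-199 reads at serum 0 h (95% exact binomial interval 13.9% to 14.7%), 8.06% on contact day 3 (7.53% to 8.62%) and 3.49% on contact day 5 (3.37% to 3.63%). In the others they made up 11.8%, 10.7%, 11.5% and 6.51% at serum 12, 16, 20 and 24 h and 7.12% on contact day 0. The highest and the lowest share were both in G0 libraries, so that there were 5.99 3p reads for each 5p read at serum 0 h and 27.6 on contact day 5.
The mean log2 ratio of 5p to 3p was −3.63 ± 1.11 in the 3 G0 libraries and −3.29 ± 0.45 in the other 5 (SD), a difference of −0.33. An exact permutation test, over the 56 ways to draw 3 of the 8 libraries, gave p = 0.571 (2-sided), or 0.893 after Benjamini-Hochberg adjustment over the 5 ratios tested here. Within the serum experiment the difference was 0.61 and within the contact experiment −0.44, so it was of opposite sign in the 2 experiments. Without contact day 5 it was 0.25.

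miR-214 also favoured the 3p strand in each library, less evenly. Its 5p reads were 8.85% (7.0% to 11%) of the miR-214 total at serum 0 h, 1.42% on contact day 3 (1.0% to 1.94%) and 7.14% on contact day 5 (5.51% to 9.08%). In the others they made up 28.8%, 12.4%, 12.8% and 7.90% at serum 12, 16, 20 and 24 h and 1.53% on contact day 0. With any 5′ end within 1 base the shares were 13.7%, 2.28% and 10.6% in the G0 libraries, in the same order, and 14.7%, 9.25%, 8.47% and 4.63% at serum 12, 16, 20 and 24 h and 1.51% on contact day 0. Contact days 3 and 0 had the lowest 5p share either way. The difference in mean log2 ratio between G0 and the others was −1.11 (exact permutation p = 0.321, adjusted p = 0.804) and changed sign, to 0.21, with any 5′ end within 1 base. It was −0.76 within the serum experiment and 1.10 within the contact experiment, of opposite sign. It was −0.24 without contact day 3, −0.61 without serum 12 h and −1.79 without contact day 0.

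Between contact days 5 and 3 the arm choice of miR-199 and of miR-214 differed in opposite directions. The 5p share of miR-199 was 3.49% on day 5 against 8.06% on day 3, while that of miR-214 was 7.14% on day 5 against 1.42% on day 3, and the intervals do not overlap in either case. Each day is 1 library, so this compares libraries.

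**Figure D3:**
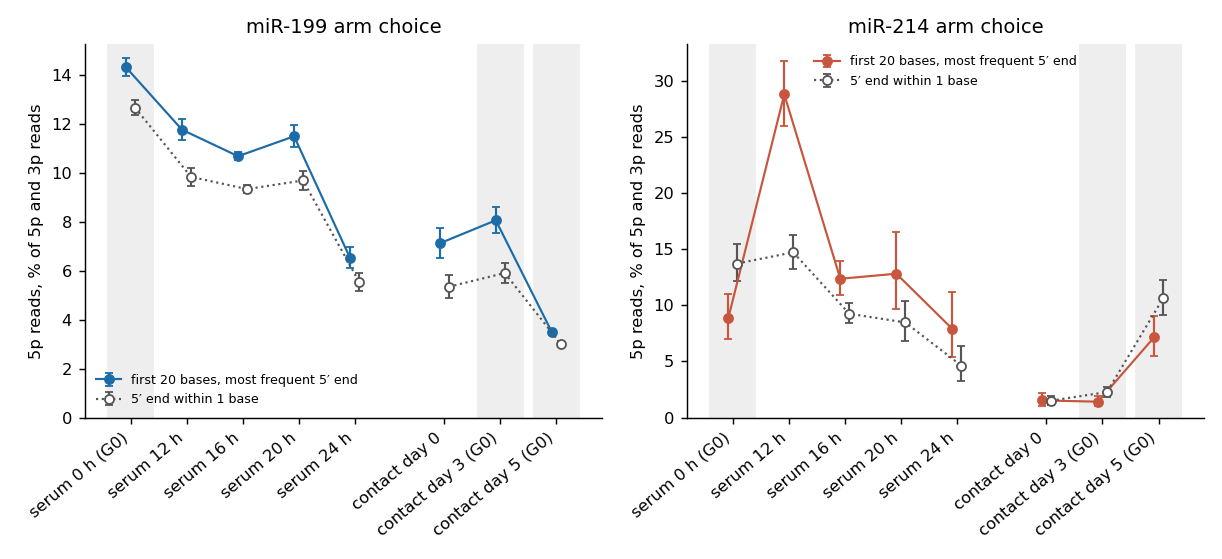
The panels plot the 5p reads as a percentage of 5p and 3p reads for miR-199 (left) and miR-214 (right) in each library, with 95% exact binomial intervals and G0 libraries shaded. Filled points count reads from the most frequent 5′ end and open points any 5′ end within 1 base. miR-199 runs between 3.49% (contact day 5) and 14.3% (serum 0 h), and miR-214 between 1.42% (contact day 3) and 28.8% (serum 12 h) in the filled points.

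The arm ratio of miR-199 varied over fewer folds than that of most other hairpins. Of 28 hairpin families with at least 10 reads of each arm in every library, miR-199 ranked 23 from the widest. Its ratio spanned 4.61-fold over the 8 libraries, while miR-214 spanned 27.8-fold and ranked 6. The top of the miR-214 span was serum 12 h, whose 5p reads came from 2 distinct inserts, as at serum 20 h. With any 5′ end within 1 base, miR-214 had from 5.79 (serum 12 h) to 65.4 (contact day 0) 3p reads per 5p read. The spans were not adjusted for the number of reads, of which miR-199 had 494 or more of each arm. In a limma fit over these families with the experiment as a term, 2 families (7.14%) passed an adjusted p of 0.05 and 7 (25%) had an unadjusted p below it. Neither member passed, with 0.13 for miR-199 and 0.08 for miR-214 (log2, G0 minus the others, SE 0.74, adjusted p = 0.947 each). The SE was the same for all 28 families, because the fit pooled their spread, so it is not each family's own spread. The lowest p belonged to miR-34b at 3.50 (adjusted p = 0.000172), miR-193a at −2.34 (0.0284) and miR-369 at −1.90 (0.0842).

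The a and b forms can be told apart only in the 5p arm, by the base at position 10. Reads with U there were 10.5% of those with C at serum 0 h and 24.6% and 23.6% on contact days 3 and 5. They were 5.24%, 11%, 9.52% and 14.3% at serum 12, 16, 20 and 24 h and 11.3% on contact day 0. At the other 6 C positions of the counted bases, no library had more than 0.292% of reads with U, and A or G at position 10 was found in 0 to 12 reads a library. The C10U reads are thus many times more frequent than such misreads.
As a share of miR-199-5p reads, miR-199b-5p had 9.51% at serum 0 h (95% exact binomial interval 8.72% to 10.3%), 19.8% on contact day 3 (17.0% to 22.7%) and 19.1% on contact day 5 (17.6% to 20.6%). In the others it had 4.98%, 9.94%, 8.70% and 12.5% at serum 12, 16, 20 and 24 h and 10.1% on contact day 0 (7.61% to 13.1%). Contact days 3 and 5 lay above all other libraries, and serum 0 h lay among the released ones. The 130 reads of miR-199b-5p at serum 12 h came from 2 distinct inserts.
The mean log2 ratio of b to a was −2.45 ± 0.69 in G0 libraries and −3.36 ± 0.55 in the others (SD, n = 3 and 5), a difference of 0.90 with exact permutation p = 0.143 and adjusted p = 0.714. It was 1.10 within the contact experiment and 0.16 within the serum experiment. The smallest p this exact test allows is 0.0357, and whether the experiments differ was not tested, since each has a single library on one side.

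The reads of miR-214-3p and miR-199a-5p did not keep a fixed ratio. The miR-199a-5p reads of Mir199a-2, the neighbour in Dnm3os, cannot be told from those of Mir199a-1. There were 0.162 reads of miR-214-3p for each read of miR-199a-5p at serum 0 h and 4.21 and 0.364 on contact days 3 and 5. In the others there were 0.281, 0.131, 0.165 and 0.457 at serum 12, 16, 20 and 24 h and 4.63 on contact day 0. Contact days 3 and 0 alone had more miR-214-3p than miR-199a-5p, also with any 5′ end within 1 base, where miR-199a-5p reads per miR-214-3p read were 0.135 and 0.117 on those days and at least 1.0 in the other libraries. Such ratios compare reads between libraries and are no measure of molecules per cell.
Against miR-199-3p there were 40.9 reads of miR-199-3p for each read of miR-214-3p at serum 0 h and 3.38 and 93.9 on contact days 3 and 5, and 28.1, 71.1, 51.1 and 35.9 at serum 12, 16, 20 and 24 h and 3.13 on contact day 0. The G0 difference in the log2 ratio of miR-214-3p was 0.59 to miR-199a-5p (exact permutation p = 0.786, adjusted p = 0.893) and 0.14 to miR-199-3p (p = 0.893, adjusted p = 0.893). Without contact day 3 they were −0.79 and −1.26, and they were −0.50 and 0.10 within the serum experiment and −1.91 and −2.51 within the contact experiment.

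**Figure D4:**
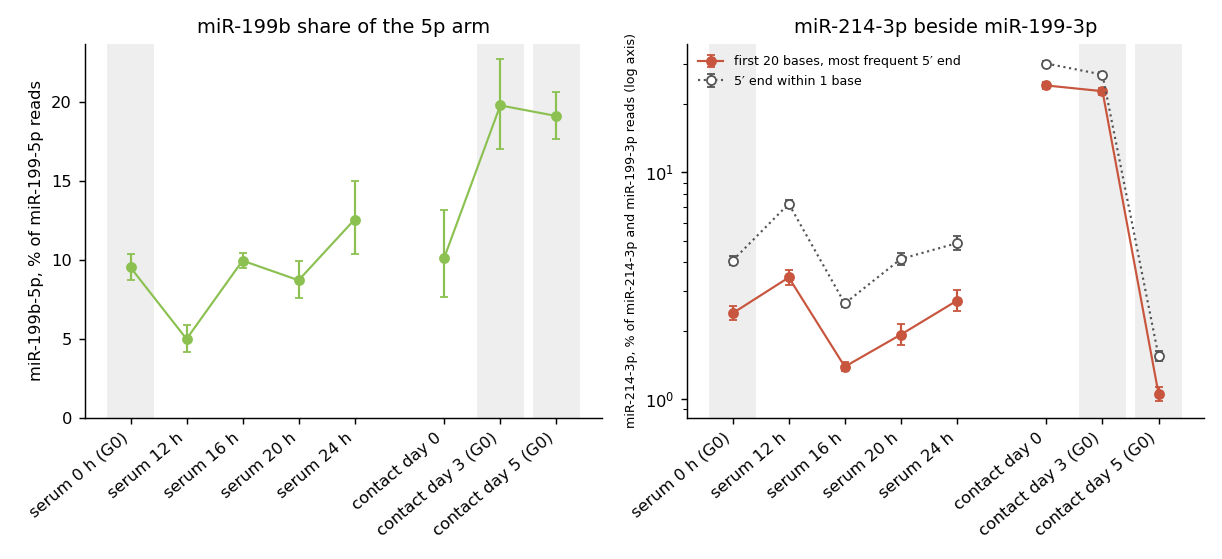
The left panel plots miR-199b-5p as a percentage of miR-199-5p reads and the right panel miR-214-3p as a percentage of miR-214-3p and miR-199-3p reads (log axis) in each library, with 95% exact binomial intervals and G0 libraries shaded. The miR-199b share is highest on contact days 3 (19.8%) and 5 (19.1%), and the miR-214-3p share is 22.8% on contact day 3 and 24.2% on contact day 0 but 1.05% on contact day 5.

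Whether the members' levels differ between the G0 libraries and the others was read from an edgeR quasi-likelihood fit over 347 miRNAs with the experiment as a term, in which 3 miRNAs (0.865%) passed a Benjamini-Hochberg adjusted p of 0.05, 0.576% of those tested as higher in G0 and 0.288% as lower. None of the 5 products did. 39 of the 347 (11.2%) had an unadjusted p below that value, and 0 of the products. This 0 rests on miR-199b-5p, whose unadjusted edgeR p was 0.0451 with DESeq2 size factors and 0.0205 with total reads as scaling. The log2 difference was 1.09 (SE 0.79, adjusted p = 0.647) for miR-199-3p, and −0.12 without contact day 5. For miR-199a-5p it was 0.87, with an SE of 0.55 and an adjusted p = 0.588, and it was 0.25 without contact day 5 and 0.13 without the experiment term. For miR-199b-5p it was 1.43, with an SE of 0.69 and an adjusted p = 0.438 (unadjusted p = 0.0505). Leaving out a library gave 0.74 (contact day 5), 0.85 (contact day 0) or 2.37 (serum 0 h). miR-214-3p stood at −0.34 (SE 0.47, adjusted p = 0.802), and at 0.26 without contact day 0 and 0.20 without the experiment term. miR-214-5p stood at −0.50 (SE 0.89, adjusted p = 0.849), and was positive with any 5′ end within 1 base (0.48), with whole inserts (0.53), without serum 0 h (0.22) and without serum 12 h (0.10).
The median of all 347 was −0.31. None of the products had all G0 libraries above or below all others, where 4.03% of the tested miRNAs had them above and 4.32% below.

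The step in the contact series came between days 3 and 5 for miR-199 and for miR-214-3p, a comparison chosen after the values were seen. Day 5 held 11.4-fold more miR-199-3p than day 3 (95% exact conditional interval 11.2 to 11.7). miR-199a-5p was 4.76-fold higher (4.36 to 5.21) and miR-199b-5p 4.57-fold higher (3.81 to 5.50), while miR-214-3p had 0.412 of its day 3 level (0.380 to 0.446). With total miRNA reads as scaling the ratios were 7.89, 3.29, 3.15 and 0.284 in the same order. Among the 164 miRNAs that reached 100 reads on either day, 26.8% were at least 2-fold higher on day 5 and 17.1% at least 2-fold lower, so large steps between these libraries were common. Against that background, 3 of the 4 products with enough reads were higher and 1 lower, and miR-214-5p had 61 reads on day 5 and 38 on day 3.

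Day 3 against day 0 depended on the scaling. The ratio was 0.721 for miR-199-3p, 0.736 for miR-199a-5p and 0.668 for miR-214-3p with TMM scaling, but 1.03, 1.05 and 0.957 with total miRNA reads, so the first pair changed direction. miR-199b-5p was at 1.61 (1.16 to 2.26), or 2.31 with total reads. On day 5 against day 0 the ratios were 8.25 for miR-199-3p, 3.51 for miR-199a-5p, 7.36 for miR-199b-5p and 0.275 for miR-214-3p. With TMM scaling, none of these 4 products passed 2-fold in the same direction from day 0 on both days, as 17.4% of 167 miRNAs did upward and 12.6% downward. With total miRNA reads miR-199b-5p passed it on both (2.31 and 7.27). miR-214-5p had too few counted reads to be compared.
miR-206-3p, the muscle miRNA with reads in all libraries, had 190 reads on contact day 0 against 79 on day 3 and 39 on day 5, and its part in these ratios was not tested.

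**Figure D5:**
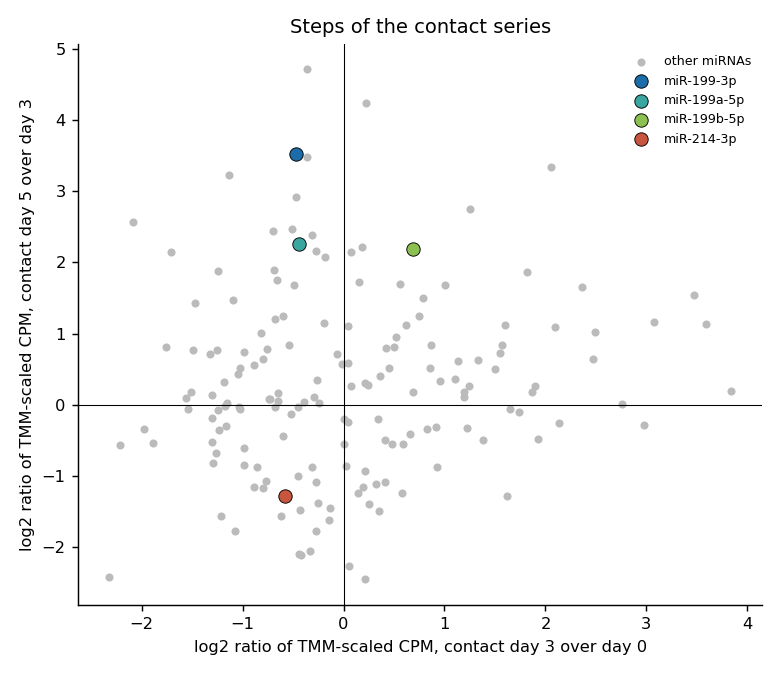
Each point is a miRNA, with the log2 ratio of TMM-scaled CPM of contact day 3 over day 0 on the x axis and of day 5 over day 3 on the y axis, for 167 miRNAs, and the named products are coloured. The 3 miR-199 products lie high on the y axis (11.4-fold, 4.76-fold and 4.57-fold) and miR-214-3p lies below 0 (0.412).

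Serum 0 h against the released libraries gave smaller fold differences than contact day 5 against day 0 for the miR-199 products and miR-214-3p. miR-199-3p was 1.29, 0.796, 1.23 and 1.34 times its level at 12, 16, 20 and 24 h. miR-199a-5p was 1.54, 1.12, 1.57 and 3.32 times and miR-199b-5p 3.10, 1.06, 1.73 and 2.44 times. miR-214-3p was 0.891, 1.38, 1.54 and 1.18 times. On fewer reads, miR-214-5p was 0.214 (0.163 to 0.277), 0.952, 1.01 and 1.33 times. No product was 2-fold on the same side of all 4 later libraries, where 4% of 225 miRNAs were higher at 0 h and 6.22% lower. miR-199a-5p was highest at serum 0 h and had its lowest serum level at 24 h. In the serum 0 h library the epithelial miR-200c-3p had 354 reads, against at most 9 in any other library. Of 6 blood miRNAs listed, 3 were among those counted. miR-142a-3p and miR-142a-5p had 62 and 45 reads at serum 0 h and 0 in any other library. miR-451a had 0 reads at serum 0 h and at most 4 in any other library. From a list of 4 miRNAs of pluripotent cells, 3 were counted, and their sum was highest at serum 12 h (710 CPM). There miR-291a-3p and miR-294-3p had 115 and 85 reads, against at most 15 and 13 in any other library. The part of such RNA in these ratios was not tested.

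A separate, longer list of fibroblast or mesenchymal miRNAs, which leaves out the 5 products and adds among others the miR-29 family and miR-10b-5p, held none that passed the edgeR fit. Of 12 listed, 11 were tested, 7 had positive and 4 negative values and 0 passed. Over all 347, 41.2% were positive and 0.865% passed. The median log2 difference of the list was 0.70 beside −0.31 over all 347. On contact day 5 against day 3, 5 of the 11 were at least 2-fold higher and 0 at least 2-fold lower. Of all 164 miRNAs compared, 26.8% were higher and 17.1% lower by that measure. The median ratio of the list was 1.71 beside 1.14 over all 164. miR-10b-5p had the highest ratio at 9.32 and miR-125b-5p the lowest at 0.660.

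The miRNAs whose levels ran most like miR-199-3p over the 8 libraries, each experiment centred on its mean, were miR-411-5p (Pearson r = 0.98), miR-434-5p, miR-143-5p, miR-152-3p and let-7i-5p. Its own 5p products ranked 16 (miR-199a-5p, r = 0.86) and 14 (miR-199b-5p, r = 0.87) of 346, and miR-214-3p ranked 341 (r = −0.82). This order depends on the centring. Without it r was 0.55 for miR-411-5p and let-7i-5p, below miR-199a-5p (0.75) and miR-199b-5p (0.87). It was 0.87 for miR-434-5p, 0.97 for miR-143-5p and 0.89 for miR-152-3p. Most like miR-214-3p were miR-674-5p (r = 0.94), miR-191-5p, let-7b-5p, miR-702-5p and miR-30c-5p. These values describe 8 libraries that share scaling factors and in which contact day 5 weighs heavily.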

How the data were processed

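The deposited files hold counts: per library, the distinct 36-nt reads and how often the authors sequenced each, with the 3′ adapter still present. No step from reads to counts is named: aligner and filters were not given in the sources used here. Per the labels the preparation followed an earlier publication. The adapter was trimmed (at least 6 bases), marker oligonucleotides removed (within 3 edits, edlib 1.3.9.post1) and inserts of 16 to 30 nt kept, in Python 3.11.15. Reads were counted when their first 20 bases matched an arm, defined by its most frequent 5′ end, of the 1174 GENCODE M21 hairpins (GRCm38).

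Levels were fitted with edgeR 4.0.16 (TMM, at least 10 CPM in 3 libraries) and arm ratios with limma 3.58.1, both first tested on simulated data. The SE of a level comes from its size and the root of F. No condition has a replicate, so p-values reflect the spread among single libraries only, pooled over all families in the limma fit. Intervals are 95% and cover counting error only, since reads carry no molecular identifiers. Named miRNAs are all members, the 5 most alike, a mesenchymal list and the 3 lowest p among arm ratios. Members and lists were chosen with earlier results of these data known. Alternatives were other scalings, filters, counting rules and left-out libraries, and, chosen after seeing the data, 5′ ends within 1 base and the day 5 to day 3 comparison.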

Additional observations from a re-analysis of the deposited data

Results flagged for a closer look

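Of 10 sets of values tested (the level of each product and each of the 5 ratios in the 5 libraries outside G0), 2 held a library far from the others, where chance marks about 1 in 20. miR-214-5p at serum 12 h (1001 CPM against 161 to 225 CPM in the other 4) stood off by a gap of 0.924 of the whole range. Its 282 reads came from 2 distinct inserts, as did the 50 reads of serum 20 h. miR-214-3p on contact day 0 (11175 CPM against 1435 to 2474 CPM) stood off by a gap of 0.893 of the range. It is the only contact library outside G0, and contact day 3 was also high (7468 CPM), so experiment and library cannot be told apart.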

How the results depend on the processing

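No product passed the adjusted p in the G0 fits under any setting tried, and none of the 5 ratios did in its exact test. That test allows no p below 0.0357, and a single ratio at this floor fails 0.05 after adjustment over the 5 ratios. The lack of a passing ratio therefore decides nothing about any single ratio. No paired analysis was possible because the libraries carry no shared replicate numbers. The cause of the changes below was not tested.

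The count of miRNAs called by edgeR (3) was 14 by DESeq2, 8 with no filter, 1 without the experiment term and 0 to 12 with a library left out. The count of arm families (2) was 1 with at least 50 reads of each arm, 1 without the experiment term and 0 to 4 with a library left out. At least 500 reads left 24 of 50 miRNAs counted in the contact series and 8 of 23 in the serum series. The median of all levels shifted by 0.20 with total reads as scaling.

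Changed signs of log2 differences were, without the experiment term, 0.20 for miR-214-3p, −0.33 for the arm ratio of miR-199 and −1.11 for that of miR-214. With whole inserts miR-214-5p was at 0.53 and miR-214-3p to miR-199-3p at −0.018, and with 18 bases that ratio was at −0.13. With any 5′ end within 1 base miR-214-5p was at 0.48, miR-214-5p to miR-214-3p at 0.21 and miR-214-3p to miR-199-3p at −0.21. With a library left out, levels ranged from −0.12 to 2.34 (miR-199-3p), −0.91 to 0.22 (miR-214-5p), −0.75 to 0.26 (miR-214-3p), 0.25 to 1.29 (miR-199a-5p) and 0.74 to 2.37 (miR-199b-5p), and fitted arm ratios from −0.44 to 0.61 (miR-199) and −0.76 to 1.09 (miR-214). In the exact tests the ratios ranged from −0.86 to 0.25 (miR-199 arms), −1.79 to −0.24 (miR-214 arms), −0.79 to 1.56 (miR-214-3p to miR-199a-5p) and −1.26 to 1.14 (miR-214-3p to miR-199-3p). miR-199b-5p to miR-199a-5p stayed positive, from 0.68 to 1.30. miR-214-5p, with 29 to 73 reads in 6 libraries, limits what its ratios can show.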
